A study of Mus musculus with 9 samples.

Results

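Costimulatory receptors are surface proteins of T cells that add their own signals to those of the T cell receptor. Transcripts of 10 such genes were followed in CD8+ T cells, taken from the count tables by gene symbol. Cd28 and Icos belong to the CD28 family. Cd27, Tnfrsf4 (which encodes OX40), Tnfrsf9 (CD137) and Tnfrsf18 (GITR) belong to the tumour necrosis factor (TNF) receptor family. Cd226 (DNAM-1), Cd2, Slamf6 (Ly108) and Slamf7 (CRACC) encode immunoglobulin-type receptors that bind proteins on neighbouring cells. These 10 genes are among 55471 gene identifiers counted in the libraries, and all 10 were among the 14918 genes with enough counts to be tested.

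CD28 and ICOS carry a tail motif that recruits phosphoinositide 3-kinase, which supports metabolism, survival and cytokine production after antigen contact. The TNF receptor members signal through TRAF adaptors to NF-kappaB, and OX40, CD137 and GITR are typically raised for a short time by activation, whereas CD27 is already present on naive cells. CD2 and the SLAM receptors Ly108 and CRACC signal at the cell contact, the SLAM receptors through adaptors of the SAP family, and DNAM-1 recognises CD155 and nectin-2. In CD8+ T cells responding to infection, CD28 and CD27 are known for supporting expansion and memory, and Ly108 is used as a marker of less differentiated cells.

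The RNA came from mouse OT-I cells, whose transgenic receptor recognises an ovalbumin peptide, sorted from spleen on day 7 after infection with Listeria monocytogenes that expresses ovalbumin (LmOVA). The control group (n = 4) was Bdh1-WT with a hairpin RNA against firefly luciferase (shCtrl), and the DKO group (n = 5) was Bdh1-KO with a hairpin RNA against Oxct1 (shOxct1), which together are meant to block the use of ketone bodies. Both groups had been activated in culture with antibodies to CD3ε and to CD28 plus interleukin 2, transduced, sorted for the Ametrine reporter, and transferred to naive C57BL/6 (CD45.1) hosts, for which no removal of host T cells is described. CD28 itself was therefore engaged by antibody in both groups before transfer. The labels give neither the age of the mice, nor the cells in which Bdh1 was deleted, nor whether the replicates came from separate donors, so p-values measure the spread between these libraries, which may in part be technical.

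Each library held 45205993 to 59853080 counts in genes. Both targeted genes fell in DKO in the edgeR fit across all genes: Oxct1 was at 63.1 ± 5.73 CPM (counts scaled to a common library total; mean ± SD, n = 4) in control and 5.16 ± 0.369 (n = 5) in DKO, and Bdh1 at 30.5 ± 4.16 and 10.6 ± 1.24, with adjusted p = 4.6e-09 and 0.000136. The cells carried the RNA of CD8+ T cells, with Cd8a at 719 ± 56.2 CPM in control and 715 ± 33.4 in DKO, and Cd4 at no more than 0.662 CPM in any library. The summed CPM of 8 CD8+ T cell genes ranged from 7027 to 9373 in control and from 6265 to 6902 in DKO (two-sided exact permutation p = 0.0159, adjusted p = 0.0476 over 6 marker lists), and of its genes Cd8b1 fell (log2 fold change -0.40, edgeR adjusted p = 0.0428). That of 12 myeloid genes ranged from 252 to 291 in control and from 202 to 217 in DKO (exact permutation p = 0.0159, the smallest these groups allow, adjusted p = 0.0476), mostly through Ctss, Cd68 and Itgam. In the edgeR fit Ctss and Cd68 fell (adjusted p = 0.00734 and 0.0138), and Itgam did not pass (adjusted p = 0.148). Of the defining myeloid genes, S100a8, S100a9 and Cd14 stayed at or under 0.534 CPM. Against the direction of the sum, Lyz2 had the higher mean in DKO (2.43 ± 1.08 and 5.84 ± 4.39 CPM), as did Csf1r (1.84 ± 1.14 and 2.37 ± 1.95 CPM). Neither passed (edgeR, adjusted p = 0.206 and 0.804), and their highest values, 13.6 and 5.63 CPM, were both in DKO replicate 1. The sums of the CD4 and regulatory T cell (35.8 and 42.4 CPM on average), natural killer (79.9 and 67.1), B cell (219.9 and 203) and erythroid and platelet lists (26.9 and 33.2) overlapped between control and DKO, with adjusted exact permutation p = 0.127, 0.143, 0.533 and 0.54. The part of the marker differences in the receptor values was not tested.

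Control replicate 1 stood apart from the other 8 libraries on the first principal component, with 16.7% of its reads unmapped against 10.3 to 12.3% elsewhere, and control replicate 3 stood apart on the next one. In control replicate 1, log2 CPM exceeded the mean of the other controls by a median of 0.45 for 931 genes with under 2 kb of exon and was below it by a median of -0.36 for 3710 genes with 5 kb or more. The receptor genes span both ends of that scale, and each receptor difference below that turns on control replicate 1 is also given without it.

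**Figure D1:**
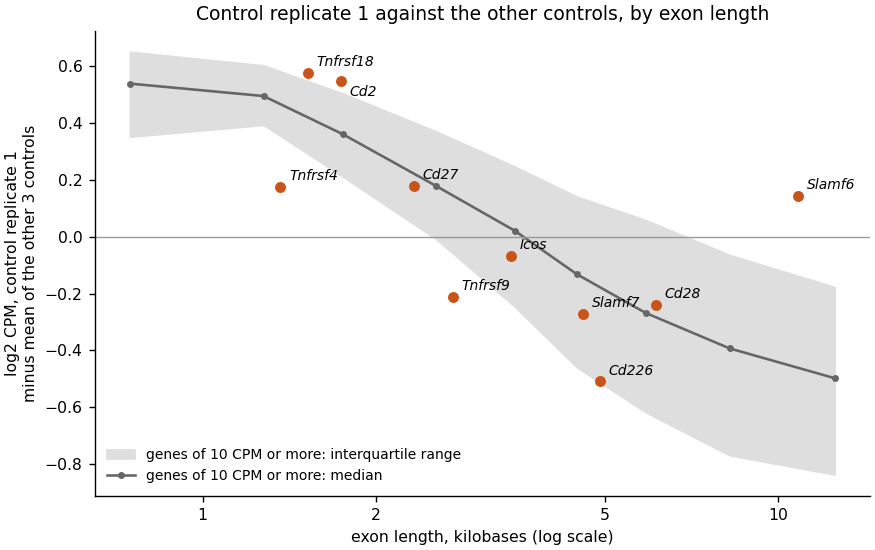
Log2 CPM of control replicate 1 minus the mean of the other 3 controls (vertical axis) against exon length in kilobases (log scale); the line and band are the median and interquartile range of genes with 10 CPM or more, and points are the 10 receptor genes. The short genes Tnfrsf18 and Cd2 lie 0.58 and 0.55 above zero, and the longer Cd226, Slamf7 and Cd28 lie below it at -0.51, -0.27 and -0.24.

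Promoter stretches are shown for the 3 genes that the comparison turns on most, Slamf7, Cd27 and Tnfrsf18, which passed the threshold in at least 1 alternative given below. They are read 5′ to 3′ along the gene's strand from RefSeq (GRCm38.p6), end at or before the base ahead of the annotated start, and leave out bases that any GENCODE M21 exon covers. Capitals mark matches on either strand to the AP-1 element TGANTCA, the NFAT core GGAAA or its reverse complement, or the kappaB element; no match overlapped another in these stretches.
Slamf7, chr1:171649008-171649249, minus strand: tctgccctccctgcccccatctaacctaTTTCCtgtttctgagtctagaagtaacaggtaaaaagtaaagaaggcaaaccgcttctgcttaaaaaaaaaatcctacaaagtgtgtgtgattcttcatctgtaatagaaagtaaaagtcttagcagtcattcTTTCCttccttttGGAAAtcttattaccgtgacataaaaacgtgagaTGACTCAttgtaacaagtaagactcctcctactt
Cd27, chr6:125237028-125237277, minus strand: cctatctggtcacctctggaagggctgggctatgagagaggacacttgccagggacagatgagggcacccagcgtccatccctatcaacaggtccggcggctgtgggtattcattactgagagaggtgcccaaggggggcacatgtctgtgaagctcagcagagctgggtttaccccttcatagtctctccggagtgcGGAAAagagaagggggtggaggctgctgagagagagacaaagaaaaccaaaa
Tnfrsf18, chr4:156026072-156026163, plus strand: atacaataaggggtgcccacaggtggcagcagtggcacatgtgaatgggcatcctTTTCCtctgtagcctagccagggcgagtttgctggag
The AP-1 match of Slamf7 begins 42 bases before the RefSeq start, and 6.75% of 32851 promoter windows of 250 bases held such a match, against 55.6% for the NFAT core and 5% for the kappaB element. The RefSeq starts read here for Slamf7, Tnfrsf9 and Tnfrsf18 lie inside the GENCODE M21 gene spans given below. Their windows are therefore not wholly upstream of the annotated gene. For Tnfrsf18, the 92 bases printed end ahead of its span, and the rest of its window is exon. Of the 6 receptor genes with a window read here (Cd27, Slamf6, Slamf7, Tnfrsf4, Tnfrsf9 and Tnfrsf18, Tnfrsf9 with 2 starts), Slamf7 and the downstream start of Tnfrsf9 held an AP-1 match, and only that Tnfrsf9 start held kappaB matches, in bases that an exon covers. These matches describe letters in the windows and not binding.

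The receptors differed far more from each other in level than between the groups. Per kilobase of exon, mean levels over the 9 libraries spanned 632-fold. The length used was that of all annotated exons of a gene together, which can exceed that of the transcript present, so the order depends on the annotation. Slamf6, with 10832 bases, and Icos, with 3430, were close in CPM (138 and 132 in control) but not per kilobase. Cd2, the receptor for CD48, stood first with 476 CPM per kb, higher than 99.5% of the genes tested. Cd27 followed at 125.8, Slamf7 at 92.7, Cd226 at 63.6, Cd28 at 50.7 and Icos at 35.6 CPM per kb. Tnfrsf18 was at 20.8 CPM per kb and Slamf6 at 11.9. The remaining pair of TNF receptors was near the bottom of the scale, Tnfrsf9 at 2.20 and Tnfrsf4 at 0.753 CPM per kb, above only 25.6% of the genes tested in the case of Tnfrsf4. Neighbours in this order had separate ranges over the libraries except Slamf7 with Cd226, Cd226 with Cd28, and Icos with Tnfrsf18. The place of Tnfrsf18 depends on counting: 27.2% of its exon bases are shared with the antisense gene Gm16008, where counting without strand leaves reads out. Summing the counts of both strands gave 2.09 times as many reads for Tnfrsf18 and put it at 39.8 CPM per kb, above Icos at 32.6, though reads of the antisense gene are then included. Slamf7 shares 9.24% of its exon bases with the antisense gene Gm37787. With both strands summed it was at 101 CPM per kb and kept its place in the order.

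**Figure D2:**
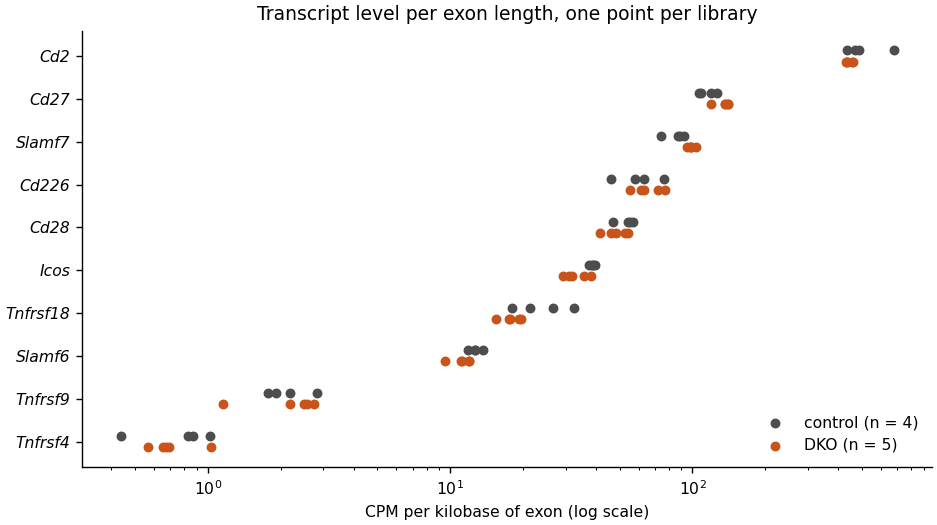
Transcript level in CPM per kilobase of exon (log scale) for each receptor gene, ordered by mean, with one point per library (control, n = 4, and DKO, n = 5). The levels run from about 476 for Cd2 to 0.753 for Tnfrsf4, and control and DKO points of a gene lie close together on this scale.

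Between control and DKO, none of the 10 receptor genes reached the threshold (edgeR, p adjusted by Benjamini-Hochberg over all genes and called under 0.05), with adjusted p from 0.163 to 0.959. Over all genes tested, 422 of 14918 passed (2.83%), 197 of them higher in DKO (1.32%) and 225 lower (1.51%). The mean was higher in DKO for Cd27, Slamf7, Cd226 and Tnfrsf9 and lower for the other 6. At an unadjusted p under 0.05, 4 receptor genes were counted, Cd27 and Slamf7 higher and Icos and Tnfrsf18 lower, where 16.0% of all genes tested were. The median log2 fold change of the 10 genes was -0.13 and that of all genes tested was -0.01, and the median size without sign was 0.19 against 0.18. That size was smaller, 0.11, for the 2447 genes tested with a mean of at least 100 CPM, of which 2.29% passed the threshold. Cd28, Icos, Cd27, Cd226, Cd2, Slamf6 and Slamf7 were above that level. DKO and control CPM did not overlap for 1 of the 10, Slamf7, against 8.71% of all genes tested. In these bulk samples, fewer cells that express a gene and less of its RNA per cell cannot be told apart.

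**Figure D3:**
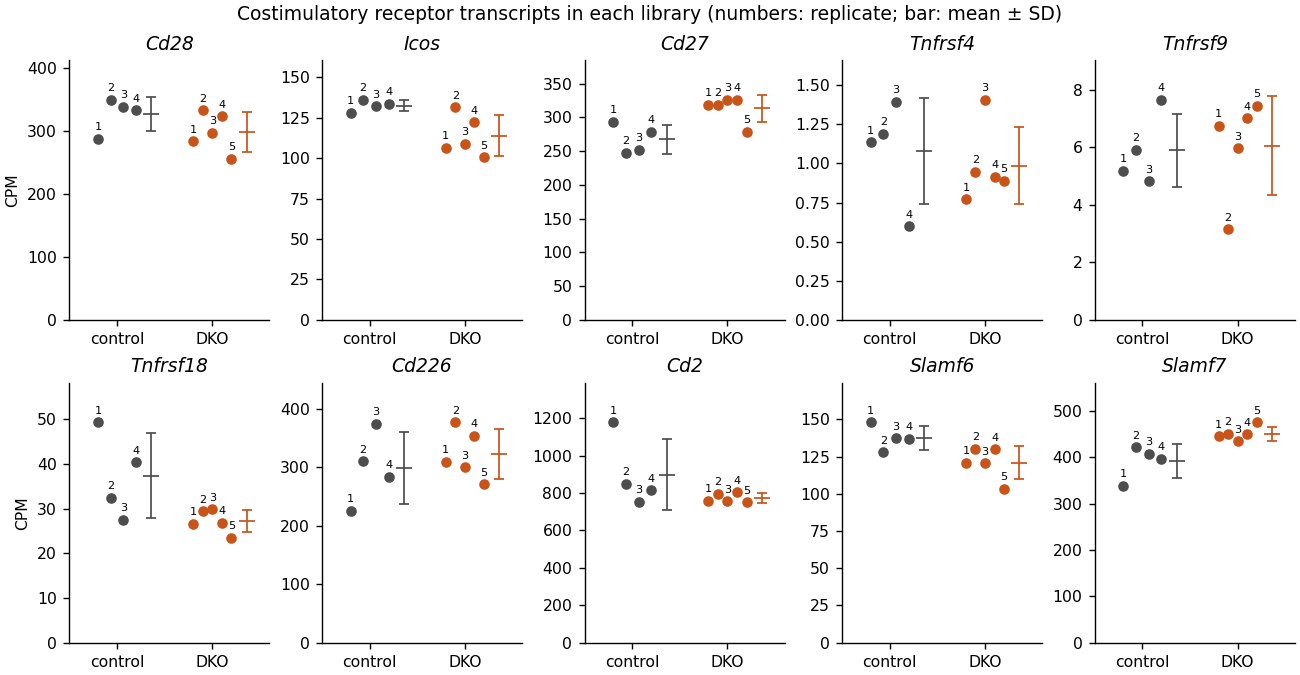
CPM of each receptor gene in every library (vertical axes from 0; small numbers are replicates; side bars are mean ± SD) in control (n = 4) and DKO (n = 5). Slamf7 is the gene whose groups do not overlap, with DKO at 435 to 475 and control at 338 to 422, and control replicate 1 is the highest control for Cd2 at 1177 and for Tnfrsf18 at 49.3.

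Of the CD28 family pair, both had lower means in DKO. Cd28 (chr1:60716800-60773359), the receptor for CD80 and CD86, was at 287, 349, 337 and 332 CPM in control replicates 1 to 4 and at 283, 332, 296, 323 and 255 CPM in DKO replicates 1 to 5. The groups overlapped, with 2 of 5 DKO libraries below the lowest control. The log2 fold change was -0.13 ± 0.09 (SE; adjusted p = 0.534), and the 95% interval placed DKO between 79.1 and 105% of control. Icos (chr1:60977927-61000320), the receptor for ICOS ligand, lies 204.6 kb downstream of Cd28. Its control values were 128, 136, 132 and 134 CPM, and its DKO values were 106, 131, 109, 122 and 101 CPM. Controls were tightly grouped (132 ± 3.43 CPM), DKO spread more widely (114 ± 12.6 CPM), and 4 of 5 DKO libraries were below every control. The log2 fold change of Icos was -0.22 ± 0.09 (adjusted p = 0.253), with an interval of 75.1 to 98.3% of control. Without control replicate 1, the lowest control for both genes, neither gene's groups overlapped (as for 14.3% of genes tested that way). The margins were narrow beside counting errors of 0.79 and 1.26% of the mean. For Cd28 the lowest remaining control was at 332.5 CPM and the highest DKO library at 332.4, and for Icos they were at 132.1 and 131.3. The log2 fold changes in that fit were -0.20 for Cd28 and -0.25 for Icos (edgeR, adjusted p = 0.18 and 0.113).

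Among the TNF receptors, Cd27 and Tnfrsf18 differed most between the groups, in opposite directions. Cd27 (chr6:125232622-125237010), the receptor for CD70, was at 293, 247, 252 and 278 CPM in control and at 318, 318, 326, 326 and 278 CPM in DKO. DKO replicates 1 to 4 were above every control and DKO replicate 5 was level with control replicate 4. The log2 fold change of Cd27 was 0.23 ± 0.08 (adjusted p = 0.186), with an interval of 104 to 132% of control. Tnfrsf18 (chr4:156026164-156028895), the receptor for GITR ligand, was at 49.3, 32.4, 27.5 and 40.3 CPM in control and at 26.6, 29.4, 29.9, 26.9 and 23.5 CPM in DKO. Controls varied by 25.5% (coefficient of variation) and DKO by 9.34%, and 3 of 5 DKO libraries were below the lowest control. The log2 fold change of Tnfrsf18 was -0.46 ± 0.15 (adjusted p = 0.163), the largest of the 10 in size, with an interval of 57.7 to 92.1% of control. It was -0.31 without control replicate 1 (adjusted p = 0.184) and -0.50 with both strands summed (adjusted p = 0.0959), within 0.047 to 0.503 over 19 alternatives.

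The activation-induced receptors OX40 and CD137 were represented by few counts. Tnfrsf9 (chr4:150914562-150946102) had 186 to 436 counts per library, at 5.20, 5.92, 4.82 and 7.66 CPM in control and at 6.76, 3.15, 5.97, 7.01 and 7.45 CPM in DKO. The groups lay within the same range apart from DKO replicate 2, which was below every control. For Tnfrsf9 the log2 fold change was 0.04 ± 0.24 (adjusted p = 0.959), and the 95% interval ran from 71.3 to 148% of control. Libraries varied by 21.4% (coefficient of variation) in control and 28.3% in DKO, against a counting error of 5.7% of the mean. Tnfrsf4 (chr4:156013843-156016612), which lies 9.552 kb from Tnfrsf18 on the same strand, had 34 to 68 counts per library. It was at 1.13, 1.19, 1.39 and 0.598 CPM in control and at 0.771, 0.948, 1.41, 0.915 and 0.888 CPM in DKO. Its log2 fold change was -0.13 ± 0.29 (adjusted p = 0.871), with an interval of 58.8 to 143% of control. The sign of both differences changed when single libraries were left out (-0.05 to 0.20 for Tnfrsf9 and -0.33 to 0.02 for Tnfrsf4).

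The 4 immunoglobulin-type contact receptors did not share a direction. Slamf7 (chr1:171632403-171653035), a receptor that binds its own kind on other cells, was at 338, 422, 407 and 397 CPM in control and at 445, 449.9, 435, 449 and 475 CPM in DKO. All 5 DKO libraries were above all 4 controls. The log2 fold change of Slamf7 was 0.20 ± 0.08 (adjusted p = 0.22), with an interval of 102 to 130% of control. It was 0.13 without control replicate 1, the lowest control (adjusted p = 0.17, within 0.0492 to 0.57 over 19 alternatives), and the groups still did not overlap. Slamf6 (chr1:171917515-171953170), 264.5 kb away on the same chromosome and also a receptor for its own kind, was at 148, 128, 137 and 137 CPM in control. In DKO it was at 121, 130.04, 120.5, 129.99 and 103 CPM, so 3 of 5 DKO libraries were below the lowest control while the others lay among the controls. For Slamf6 the log2 fold change was -0.19 ± 0.09 (adjusted p = 0.325), with an interval of 77.2 to 100.2% of control. Whether the difference of Slamf7 and that of Slamf6 differ from each other was not tested.

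Cd2 (chr3:101275899-101287939), the most abundant of the 10, was at 1177, 847, 754 and 813 CPM in control and at 757, 795, 755, 804 and 749.7 CPM in DKO. The DKO libraries were close together (772 ± 25.3 CPM), and the control mean of 898 ± 189.9 CPM included replicate 1, which was above every other library. The log2 fold change was -0.22 ± 0.12 (adjusted p = 0.391), with an interval of 72.1 to 103% of control, and it was -0.07 (adjusted p = 0.501) without control replicate 1, where the other controls averaged 805 ± 47.0 CPM (n = 3). Cd226 (chr18:89176967-89272229), the receptor for CD155, was at 225, 309.9, 374 and 284 CPM in control and at 308, 376, 299.6, 354 and 271 CPM in DKO. The groups overlapped, with control replicate 1 below every DKO library. Its log2 fold change was 0.11 ± 0.14 (adjusted p = 0.752), with an interval of 87.1 to 134% of control, and it was -0.02 without control replicate 1.

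Within each group, 1 library was often at the edge for several receptors. DKO replicate 5 was the lowest DKO library for 7 of the 10 genes (Cd28, Icos, Cd27, Tnfrsf18, Cd226, Cd2 and Slamf6) and the highest for Tnfrsf9 and Slamf7. Control replicate 1 was the lowest control for Cd28, Icos, Cd226 and Slamf7 and the highest for Cd27, Tnfrsf18, Cd2 and Slamf6. For the 8 genes above 10 CPM, counting error was at most 2.47% of the mean, and the spread between libraries of a group was larger than that in every case (2.59 to 25.5%).

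Alternatives to the main test moved 3 receptor genes past the threshold. With 1 surrogate variable, a covariate estimated from the counts, Cd27 (log2 fold change 0.25, adjusted p = 0.0341), Tnfrsf18 (-0.37, adjusted p = 0.047) and Slamf7 (0.19, adjusted p = 0.0492) passed, as did 8.29% of all genes tested. With limma-voom and quality weights Cd27 passed (0.29, adjusted p = 0.0192), beside 6.68% of all genes. Without control replicate 1 Cd27 passed narrowly (0.26, adjusted p = 0.0497), beside 4.93% of all genes. Over 19 alternatives the log2 fold change of Cd27 stayed between 0.19 and 0.29 and its adjusted p between 0.0192 and 0.372. The estimated covariate was -0.85 in control replicate 1 and between -0.06 and 0.49 in the other 8 libraries.

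**Figure D4:**
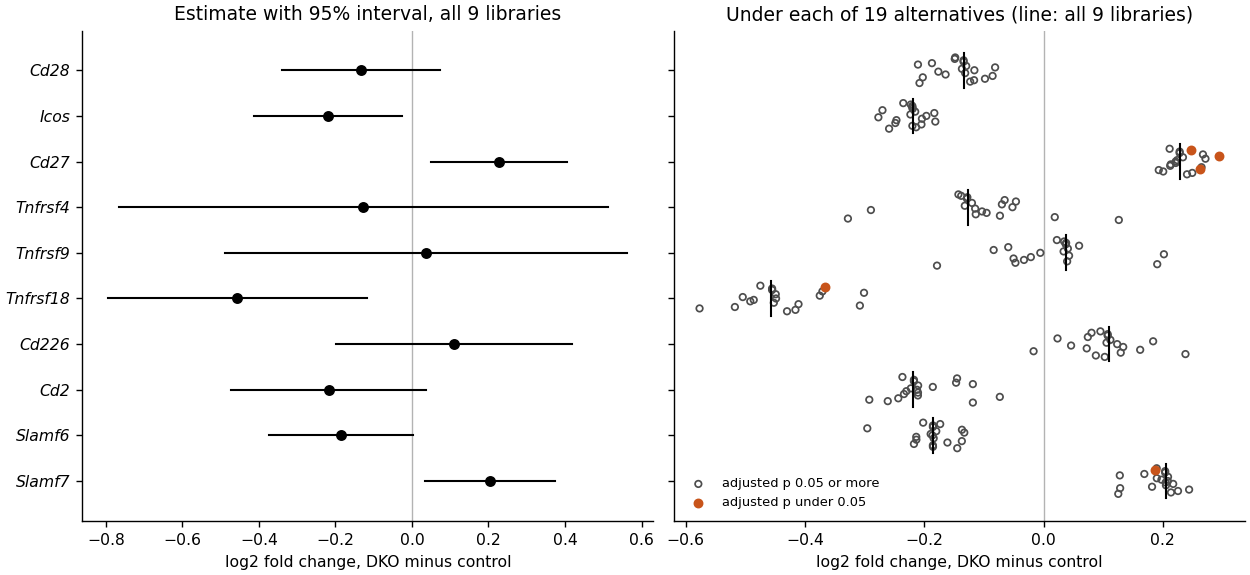
Log2 fold change, DKO minus control, of each receptor gene: left, the estimate with its 95% interval from all 9 libraries; right, the value under each of 19 alternatives, filled where the adjusted p was under 0.05. The intervals of Tnfrsf4 and Tnfrsf9 are the widest, and filled points occur for Cd27 (3), Tnfrsf18 (1) and Slamf7 (1).

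Genes whose pattern over the 9 libraries was most like that of Tnfrsf18, the receptor with the smallest unadjusted p, were Atg10, Gm36738 and Pex3. Their log2 CPM, centred on each gene's mean, differed from that of Tnfrsf18 by a root mean square of 0.086, 0.0891 and 0.0896, where Tnfrsf18 itself varied by 0.313. Atg10, which encodes an autophagy enzyme, was at 11.1 ± 2.67 CPM in control and 7.74 ± 0.285 in DKO, and Pex3, a peroxisome assembly gene, at 22.9 ± 4.79 and 15.6 ± 1.87 CPM. None of the 3 passed the threshold (adjusted p = 0.104, 0.279 and 0.0752).

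Genes that act with these receptors were examined in 8 lists, of which 106 of 118 genes were tested, each counted once, and 3 passed the threshold (2 higher and 1 lower). All genes tested passed at a share of 2.83%, so this count does not set the lists apart from other genes. Slamf1, the SLAM receptor gene that lies between Slamf7 and Slamf6, rose in DKO. It was at 60.4, 69.0, 66.0 and 63.8 CPM in control and at 81.4, 94.2, 79.7, 87.8 and 87.7 CPM in DKO, with every DKO library above every control. Its log2 fold change was 0.41 ± 0.08 (edgeR, adjusted p = 0.0227), and it stayed past the threshold in 13 of 19 alternatives (adjusted p = 4.45e-05 to 0.179). Traf1, an adaptor of TNF receptors such as CD137 and itself an NF-kappaB target, fell in DKO. Traf1 was at 251.2, 253, 259 and 300.5 CPM in control and at 208, 224, 211, 206 and 175 CPM in DKO, again with no overlap. Its log2 fold change was -0.38 ± 0.09 (adjusted p = 0.0478, 0.00364 to 0.307 over the alternatives, past the threshold in 9 of 19). Bcl3, an atypical inhibitor protein of the NF-kappaB family, rose in DKO from 26.4 ± 5.55 to 42.7 ± 7.81 CPM, with a log2 fold change of 0.70 ± 0.17 (adjusted p = 0.0497, 0.00253 to 0.169 over the alternatives, past in 7 of 19). With single libraries left out, Slamf1 stayed past the threshold in 4 of 9 fits, losing the call without control replicate 4 or without DKO replicate 1, 2, 4 or 5. Traf1 stayed past it only without control replicate 1, and Bcl3 only without control replicate 4.

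Other receptor genes mostly did not pass. Of 9 other co-receptor genes (Ctla4, Pdcd1, Btla, Cd5, Cd6, Tigit, Cd96, Crtam and Pvrig), 0 passed, with Cd6 at 432 ± 68.8 CPM in control and 553 ± 56.5 in DKO (adjusted p = 0.137) and Cd96 at 349 ± 14.5 and 339.6 ± 13.9 (adjusted p = 0.819). At an unadjusted p under 0.05, 6 of those 9 were counted, 4 higher and 2 lower in DKO, where 16.0% of all genes tested were. Of 11 other TNF receptors tested, 0 passed and 1 was under an unadjusted p of 0.05, the most abundant being Tnfrsf1b at 258 ± 65.6 and 287 ± 11.7 CPM (adjusted p = 0.678) and Tnfrsf13b at 61.5 ± 3.44 and 64.6 ± 4.46 CPM (adjusted p = 0.721). Of 5 other SLAM receptors tested, Slamf1 was the only one to pass. Cd48, which encodes the ligand of CD2, was at 1251 ± 166 and 1241 ± 69.2 CPM (adjusted p = 0.967), and Ly9 at 335 ± 29.0 and 295 ± 42.7 CPM (adjusted p = 0.454).

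Ligands and signalling genes gave 1 further call, that of Traf1, and the costimulation-induced list gave that of Bcl3. Of 7 ligand genes tested, 0 passed and 2 were under an unadjusted p of 0.05, both lower in DKO. The mean was lower in DKO for 6 of the 7, and the list median log2 fold change was -0.09. The 1 that was higher was Pvr, which encodes the DNAM-1 ligand CD155, at 40.0 ± 9.79 and 46.5 ± 10.1 CPM (edgeR, adjusted p = 0.604). Cd70 and Tnfsf18, ligands of CD27 and GITR, had too few counts to be tested. In the CD28 and ICOS signalling list 0 of 25 genes passed and 18 of 25 had the higher mean in DKO. Its median log2 fold change was 0.13, beside -0.01 over all genes, and the kinases Lck (2750 ± 269 and 2806 ± 62.0 CPM, adjusted p = 0.888) and Fyn (1490 ± 133 and 1377 ± 75.6 CPM, adjusted p = 0.528) were its most abundant members. Traf1 was the 1 call among 21 genes of TRAF signalling, whose most abundant members were Rbck1 (389 ± 34.2 and 407 ± 23.2 CPM) and Traf3ip3 (365 ± 16.2 and 336 ± 17.3 CPM), with adjusted p = 0.747 and 0.441. Of 11 genes in SLAM and CD2 signalling 0 passed, with the phosphatase gene Ptpn6 at 821 ± 25.5 and 933 ± 69.4 CPM (adjusted p = 0.245). Of 19 genes known to be induced by costimulation Bcl3 alone passed, while the survival gene Mcl1 was at 564 ± 76.6 and 723 ± 58.4 CPM (adjusted p = 0.0933) and Icam1 at 180.2 ± 10.47 and 188 ± 9.06 CPM (adjusted p = 0.721).

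**Figure D5:**
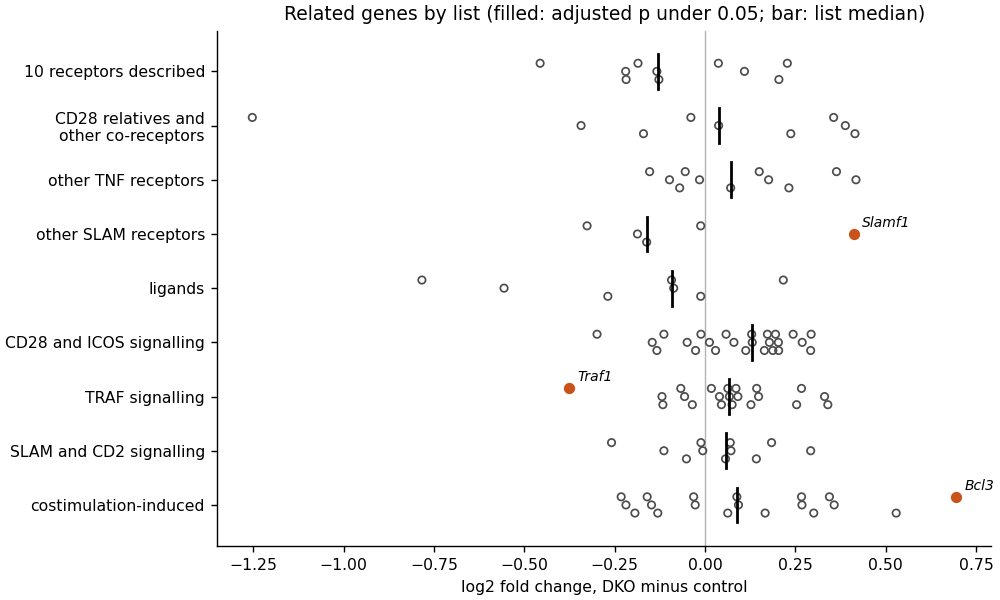
Log2 fold change, DKO minus control, of the 10 receptor genes and of each tested gene in 8 related lists (points; a gene may stand in more than one list), with the list median as a bar and filled points where the adjusted p was under 0.05. Filled points are Slamf1, Traf1 and Bcl3, and the list medians lie between -0.16 and 0.13.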

How the data were processed

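RNA sequencing libraries of sorted mouse OT-I CD8+ T cells, 4 control and 5 DKO, were analysed. PolyA RNA was extracted with the Qiagen RNeasy kit, and Takara Smartseq v4 and Illumina Nextera Flex were used for the libraries, per the labels' protocols. The authors deposited raw counts per gene, 1 file per library in STAR's layout, with an unstranded column and a column for each strand. Trim Galore 0.6.0, STAR 2.7.8a and the mm10 build are named in the submitters' processing notes, and the annotation is not given in the sources used here. Between 49.9 and 50.1% of stranded counts fell in the first strand column, so the unstranded column was used; it drops reads that fall on exons of genes from both strands. Of each library, 10.3 to 16.7% of reads were unmapped, 5.8 to 6.79% multimapping, 4.01 to 5.2% outside features and 4.97 to 5.31% ambiguous, and none of these entered the library sizes. Symbols, coordinates and exon lengths came from GENCODE M21, version dropped (55230 of 55471 identifiers matched).

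The whole table was fitted in edgeR 4.0.16 (R 4.3.3) by robust quasi-likelihood with TMM scaling and no covariate, after filterByExpr (minimum count 10, minimum total 15), with Benjamini-Hochberg adjustment over 14918 genes and a threshold of 0.05. CPM were scaled by TMM, and log2 CPM had a prior count of 2. Marker sums were tested by exact permutation over all relabellings of the libraries. Alternatives were DESeq2 size factors, the DESeq2 1.42.0 Wald test, limma 3.58.1 voom, dropping the low-count filter or requiring 1 CPM in 4 libraries, summing the strand columns, 1 surrogate variable (sva 3.50.0), a block for the replicate number, and fits without each library in turn, or without control replicates 1 and 3 together. Removal of an exon-length trend was added after seeing the data. Named genes were the 10 receptors, Bdh1 and Oxct1, in each related list every gene past the threshold and the 2 of highest mean CPM, and the 3 genes nearest in pattern to the receptor with the smallest p. The receptors, lists and rule were chosen with earlier results of these data known. No libraries of a group were duplicates by a chi-square comparison of counts. The fits were tested on simulated data. Tables and figures were made with Python 3.11.15, scipy 1.17.1 and matplotlib 3.10.9.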

Additional observations from a re-analysis of the deposited data

Results flagged for a closer look

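Among 64 gene and group combinations checked, 4 held a library separated from the rest of its group by more than Dixon's 95% critical value, where chance gives about 1 in 20. Of the receptors, Cd27 was at 278.1 CPM in DKO replicate 5, against 318.1 to 326.1 CPM in the other DKO libraries. Tnfrsf4 was at 1.408 CPM in DKO replicate 3, against 0.7707 to 0.9481 CPM in the others. Of the related genes, Traf1 was at 300.5 CPM in control replicate 4, against 251.2 to 259.5 CPM in the other controls, and Traf3ip3 was at 305.2 CPM in DKO replicate 5, against 339.7 to 346.4 CPM in the others.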

How the results depend on the processing

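The 10 receptors gave 190 values under 19 alternatives, of which 174 kept direction and side of the threshold, 5 passed it and 11 reversed. The count of receptors past the threshold was 0 in the main fit, 3 with 1 surrogate variable, 1 with limma-voom and 0 to 1 with single libraries left out, the 1 being without control replicate 1. Genes past the threshold numbered 422 in the main fit, 1237 with 1 surrogate variable, 1038 with the DESeq2 Wald test, 996 with limma-voom, 67 with the replicate block, and 179 (without DKO replicate 1) to 749 (without control replicate 1) with single libraries left out. Related genes past the threshold numbered 3 in the main fit, 15, 11, 13 and 0 under those same 4 alternatives, 5 with the length trend removed, 6 without control replicates 1 and 3, and 0 to 9 with single libraries left out. Control and DKO libraries with the same replicate number in their titles did not deviate together (correlations -0.05, -0.01, 0.01 and -0.12). The deposited file of control replicate 4 carries the number 5, and its correlation with DKO replicate 5 was 0.14; by either number not every pair correlated, so the numbers were not taken to pair the libraries, and the replicate block used the titles. Reversed log2 fold changes without control replicates 1 and 3 were 0.13 for Tnfrsf4, -0.18 for Tnfrsf9, -0.056 for Tnfrsf1b, 0.057 for Cd48, -0.037 for Lck, -0.051 for Rbck1 and -0.0044 for Icam1. With limma-voom they were -0.059 for Tnfrsf9, 0.0024 for Cd48 and -0.0072 for Pvr. With the replicate block Tnfrsf9 was at -0.084, with 1 surrogate variable Cd48 was at 0.022, and with the length trend removed Cd48 was at 0.070 and Cd96 at 0.00055. With single libraries left out, the ranges that crossed zero were -0.33 to 0.019 for Tnfrsf4, -0.050 to 0.20 for Tnfrsf9, -0.017 to 0.24 for Cd226, -0.026 to 0.27 for Tnfrsf1b, -0.076 to 0.059 for Cd48 and -0.038 to 0.053 for Lck. The cause of these reversals was not tested. Counting error was largest for Tnfrsf4 and Tnfrsf9 among the receptors, at 13.8 and 5.7% of the mean, below the spread between libraries of a group (24.8 to 31.5% and 21.4 to 28.3%).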
